A study of Homo sapiens with 8 samples.

Results

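The unfolded protein response and the integrated stress response were followed through 32 human genes in xenograft tumours of T24, a line of human bladder cancer cells grown here in mice. The genes were taken by symbol from a chosen list, and all 32 were found among the 58302 genes of the count table. They comprised 12 chaperones and folding enzymes of the endoplasmic reticulum (ER), 2 genes of ER-associated degradation, 5 sensors and transcription factors of the unfolded protein response, ATF4, and 12 targets of ATF4. All 32 passed the filter on low counts and were among the 18973 genes tested.

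Polyadenylated RNA of 4 tumour libraries labelled control and 4 with enforced expression of DDR1, a collagen-activated receptor tyrosine kinase, was sequenced. Both groups shared the T24 background and the mouse host, and no library received a drug or an ER stressor according to the labels. The mouse strain, the age of the hosts, what the control cells carried, the promoter that drove DDR1 and the number of clones are not stated there. Replicate numbers 1 to 4 only name a library. Nothing in the labels says that the libraries came from separate animals, so the p-values cover only how far these 8 libraries scatter, which can be partly technical.

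The unfolded protein response is the programme by which a cell senses misfolded protein in the ER. Its sensors are ERN1 (IRE1), which splices XBP1 mRNA, EIF2AK3 (PERK), which phosphorylates eIF2α, and ATF6, which is cleaved in the Golgi, and XBP1 and ATF6 then switch on chaperones and degradation genes through the ER stress response element (ERSE). Phosphorylated eIF2α, made by PERK or by kinases that sense other stresses, slows translation but favours translation of ATF4, which raises genes of amino acid supply, redox balance and stress feedback; this branch is the integrated stress response. Gene-level counts do not separate spliced from unspliced XBP1 and measure neither ATF4 protein nor eIF2α phosphorylation.

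The promoters of several members hold the letters that these factors bind, and the windows are shown because the same genes fall into the groups compared. RefSeq promoter sequences (build GRCh38.p14, 250 bases before to 50 after the start) were matched for 31 members. On both strands, CCAAT and CCACG spaced by 9 bases (ERSE) occurred in 5 of the 31, HSPA5, HSP90B1, CALR, XBP1 and CRELD2, against 0.0806% of 27305 promoters. ATTGG and CCACG spaced by 1 base (ERSE-II) occurred in 3, HYOU1, HERPUD1 and SDF2L1, against 0.0549%. ERSE and ERSE-II share the CCACG letters, but no member promoter held both. The letters TGATGNAA, a form of the element bound by ATF4 with C/EBP factors, occurred in 4, ATF3, ASNS, CHAC1 and HERPUD1, against 3.67%. The windows below are written 5′ to 3′ on the strand of the gene, with the motif letters in capitals; where the motif lies on the other strand its reverse complement is in capitals.
HSPA5, ERSE, chr9:125241371-125241429, minus strand: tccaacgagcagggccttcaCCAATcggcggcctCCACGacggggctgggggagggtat
CALR, ERSE, chr19:12938364-12938422, plus strand: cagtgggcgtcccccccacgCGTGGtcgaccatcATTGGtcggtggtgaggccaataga
XBP1, ERSE, chr22:28800583-28800641, minus strand: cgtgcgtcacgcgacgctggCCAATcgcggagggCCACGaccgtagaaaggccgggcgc
CRELD2, ERSE, chr22:49918534-49918592, plus strand: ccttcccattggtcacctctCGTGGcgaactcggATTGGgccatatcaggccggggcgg
SDF2L1, ERSE-II, chr22:21642094-21642144, plus strand: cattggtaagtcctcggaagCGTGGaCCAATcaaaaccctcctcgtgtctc
HERPUD1, ERSE-II, chr16:56932005-56932055, plus strand: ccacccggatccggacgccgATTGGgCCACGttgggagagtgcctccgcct
HERPUD1, ATF4 element, chr16:56931946-56931993, plus strand: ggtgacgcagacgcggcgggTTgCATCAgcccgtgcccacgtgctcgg
ASNS, ATF4 element, chr7:97872449-97872496, minus strand: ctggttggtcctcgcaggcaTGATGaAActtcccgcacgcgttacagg
A match describes letters in the window and does not show binding.

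The libraries held 13716285 to 32271016 expected counts, and levels are given below in CPM, counts scaled to the size of each library. Transcripts of RNA polymerase III made up 12.4, 6.99, 12.3 and 15.1% of counts in control libraries 1 to 4. They made up 10.9, 8.11, 7.0 and 9.12% in DDR1 libraries 1 to 4. DDR1, the enforced gene, was at 110 to 210 CPM in the controls and at 159, 343, 427 and 810 CPM in DDR1 libraries 1 to 4. The library labelled DDR1 1 thus lay within the control range, and libraries are named below by their labels. Without it no member was called and none stood at an unadjusted p under 0.05 (edgeR). The log2 fold change of DDR1 was 1.52 (SE 0.433, unadjusted p = 0.00612, edgeR quasi-likelihood test, adjusted p = 1), and the exact two-sided permutation test gave p = 0.0571, where the smallest possible is 0.0286. Summed human carcinoma markers were at 3827 to 6362 CPM, with CD44 the most abundant. Of 7 fibroblast markers 4 passed the filter on low counts, as did 3 of 6 endothelial, 3 of 7 leukocyte, 2 of 10 plasma and B cell and 0 of 5 erythroid markers, and HBB was at 0 in all libraries. The most abundant marker of each such list was COL1A1 (3.33 to 22.6 CPM), CDH5 (1.64 to 51.1 CPM), CD68 (11.9 to 46.3 CPM), SDC1 (213 to 550 CPM), MYH11 for muscle and fat (11.3 to 25.1 CPM) and ALAS2 (0 to 0.283 CPM). Lanes are named in the titles. Control libraries 1 and 2 came from lane 7, all DDR1 libraries from lane 8, and control libraries 3 and 4 name none, so lane and group cannot be told apart. Titles open with a prefix, R68 for control library 1, R69 for control library 2 and R69_2 for control libraries 3 and 4. DDR1 library 1 has R70, and DDR1 libraries 2 to 4 share R71. What a prefix stands for is not stated, and 1 alternative summed the libraries that share one.

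None of the 32 genes passed the test between DDR1 and control tumours at an adjusted p of 0.05 (edgeR quasi-likelihood, Benjamini-Hochberg over 18973 genes). The background was the same, with 0 genes called of those tested (0%). At an unadjusted p under 0.05 stood 1 member, HERPUD1, against 791 genes (4.17%) of all tested, and DESeq2 called 16 genes, none of them a member. HERPUD1 was also the 1 member whose groups did not overlap, against 456 genes (2.4%) of all tested, so both shares were near the background. Values were higher in DDR1 tumours for 13 members and lower for 19, with a median log2 fold change of -0.04, beside a median of -0.003 over all genes tested. The 95% interval of the fold change lay within 2-fold either way for 25 of the 32 and within 1.5-fold for 8.

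**Figure D1:**
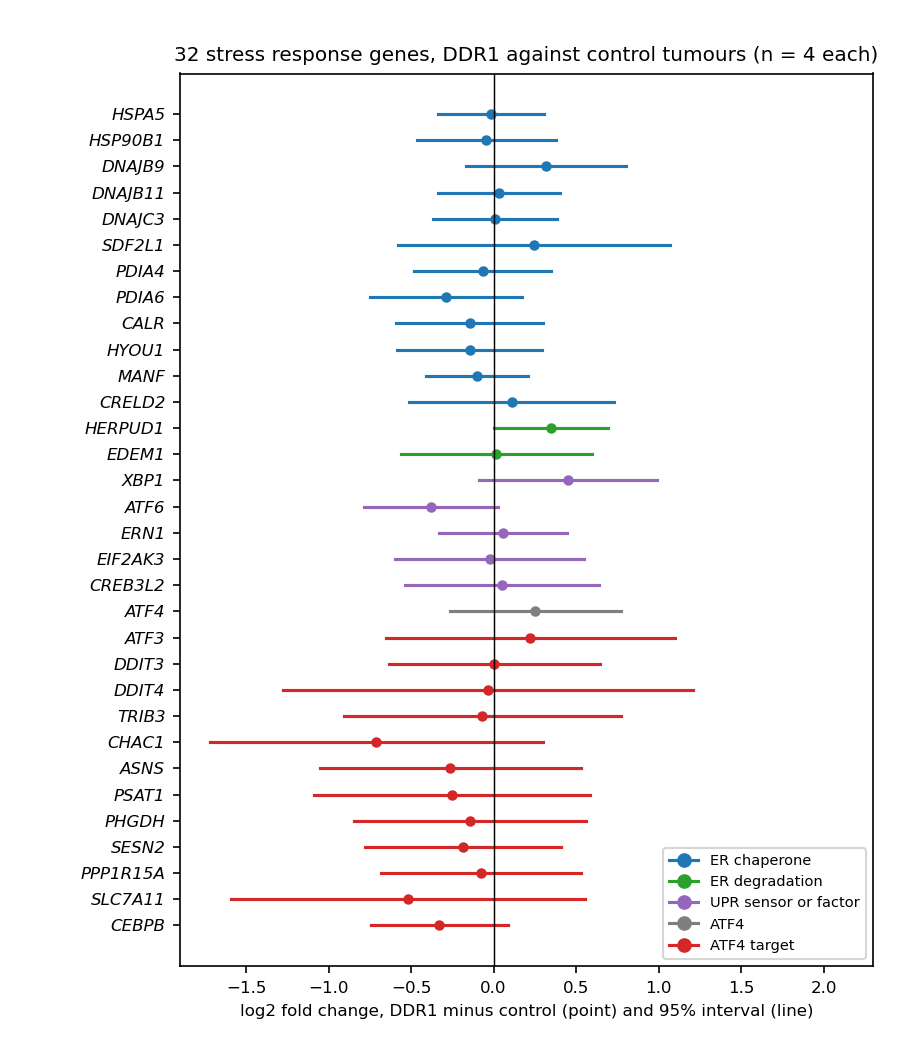
Log2 fold change of each of the 32 genes in DDR1 against control tumours (4 libraries each), x axis, with its 95% interval as a line and colours for the roles. The intervals of 31 genes cross 0, that of HERPUD1 starts at 0.004, and the intervals are widest for SLC7A11, DDIT4 and CHAC1.

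Of the ER chaperones, HSPA5 and MANF were among the most even genes of the tumours. HSPA5 (BiP, ENSG00000044574, chr9:125234853-125241330, minus strand), the ER Hsp70 that holds the 3 sensors inactive, was at 452, 405, 450 and 401 CPM in control libraries 1 to 4 and at 389, 398, 451 and 452 CPM in DDR1 libraries 1 to 4. The groups overlapped throughout, the highest library was 1.16 times the lowest, and the log2 fold change was -0.02 (SE 0.144, 95% interval -0.34 to 0.31). HSPA5 had a smaller SD of log2 CPM than all but 0.348% of genes tested, and than all but 1.02% of the 588 genes within 2-fold of its level. MANF, a secreted ER stress factor that binds BiP, followed with a range of 41.7 to 53.3 CPM and an SD at the 3.1 percentile of genes near its level.

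The most abundant chaperones per length were CALR (calreticulin, 274.5 CPM per kb of exon) and HSP90B1 (GRP94, the ER Hsp90, 184.1 CPM per kb), and the least abundant was CRELD2 at 5.48 CPM per kb. CALR was at 791, 868, 603 and 869 CPM in the controls and at 654, 781, 841 and 554 CPM in the DDR1 libraries. HSP90B1 was at 903, 902, 770 and 935 CPM in the controls and at 860, 879, 1034 and 634 CPM in the DDR1 libraries. HYOU1 (GRP170, a nucleotide exchange factor for BiP) was at 330, 310, 232 and 353 CPM in the controls and at 294, 299, 310 and 205 CPM in the DDR1 libraries. In all 3 genes control library 3 was the lowest control and DDR1 library 4 the lowest of all, and the groups overlapped. Their log2 fold changes were -0.15, -0.04 and -0.14.

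PDIA6, a protein disulfide isomerase, had the lowest fold change of the chaperones. It was at 319, 253, 287 and 269 CPM in the controls and at 272, 276, 224 and 153 CPM in the DDR1 libraries (log2 fold change -0.29, SE 0.206, unadjusted p = 0.196). DDR1 library 4 was far below the rest and library 3 also below every control. On the opposite strand PDIA6 (257 CPM on average) shares 1033 exonic bases with ATP6V1C2 (8.89 CPM), and the kit is not stated to mark strand. PDIA4, of the same enzyme family, was at 177 to 277 CPM over the 8 libraries with overlapping groups. DNAJB9 (ERdj4, a BiP co-chaperone that restrains IRE1) had the highest, with 16.5, 15.5, 16.6 and 16.2 CPM in the controls and 22.3, 25.3, 20.3 and 12.9 CPM in the DDR1 libraries. DDR1 libraries 1 to 3 lay above every control and library 4 below them (log2 fold change 0.32, SE 0.215, unadjusted p = 0.172). DNAJB9 (18.2 CPM on average) shares 183 exonic bases with THAP5 (31.4 CPM) and 99 with PNPLA8 (29.4 CPM), both on the opposite strand. Their part in its counts was not tested. The BiP co-chaperones DNAJB11 (ERdj3) and DNAJC3 (p58IPK, also an inhibitor of eIF2α kinases) had fold changes of 0.03 and 0.01 on the log2 scale.

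SDF2L1 and CRELD2 varied most among the chaperones. SDF2L1, which acts with ERdj3, was at 5.04, 4.68, 9.77 and 5.48 CPM in the controls and at 11.1, 4.998, 4.57 and 8.95 CPM in the DDR1 libraries. CRELD2, an ER protein induced by misfolded protein, was at 24.7, 18.4, 39.4 and 26.3 CPM in the controls and at 41.4, 24.1, 21.6 and 30.5 CPM in the DDR1 libraries. Both were highest in control library 3 and DDR1 libraries 1 and 4, so the high libraries came from both groups. Their log2 fold changes were 0.25 (SE 0.368) and 0.11 (SE 0.277). CRELD2 (28.3 CPM on average) shares 168 exonic bases with ALG12 (25.5 CPM) on the opposite strand, whose part in its counts was not tested.

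Of the degradation genes, HERPUD1 was higher in each DDR1 library than in each control. HERPUD1 (Herp, a scaffold of the ubiquitin ligase complex at the ER membrane, ENSG00000051108, chr16:56932048-56944863, plus strand) was at 67.7, 64.0, 50.2 and 61.9 CPM in the controls, and at 75.5, 69, 74.8 and 91.4 CPM in the DDR1 libraries. The gap between the highest control and the lowest DDR1 library was small beside either range. The log2 fold change was 0.35 (SE 0.154, 95% interval 0.004 to 0.70, unadjusted p = 0.0479, adjusted p = 1, edgeR). It ran from 0.19 to 0.50 over 20 alternatives, all above 0. The unadjusted p of HERPUD1 was under 0.05 in few of them. These were limma-trend on the deposited log2 values, and edgeR without control library 1, without DDR1 library 2 or without the lane 7 controls. EDEM1, which hands misfolded glycoproteins to degradation, was at 112 to 134 CPM in the controls and at 64.1, 145, 163 and 128 CPM in the DDR1 libraries, so DDR1 library 1 was the lowest and 2 others the highest.

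Among sensors and factors, XBP1 and ATF6 had the largest differences, in opposite directions, and neither passed the test. XBP1 was at 109, 127, 137 and 119 CPM in the controls and at 252, 123, 122 and 178 CPM in the DDR1 libraries. DDR1 libraries 1 and 4 lay above the controls and the other two within them (log2 fold change 0.45, SE 0.241, unadjusted p = 0.0921), and without DDR1 library 1 the log2 fold change was 0.19. ATF6 was at 109, 98.4, 70.1 and 84.6 CPM in the controls and at 63.6, 82.9, 73.1 and 59.2 CPM in the DDR1 libraries (log2 fold change -0.38, SE 0.181, unadjusted p = 0.0657). The groups overlapped through control library 3 alone. Plasma cells have high XBP1, and any such cells in these tumours would be of the mouse host. Summed markers of these cells were at 217 to 551 CPM in the controls and 264 to 364 CPM in the DDR1 libraries. Nearly all of it was SDC1, which carcinoma cells also express. The part of such cells in the XBP1 values, through mouse reads matched to human genes, was not tested.

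ERN1, EIF2AK3 and CREB3L2 differed by less. ERN1 was at 22.9 to 30.4 CPM in the controls and at 21.5 to 30.2 CPM in the DDR1 libraries. EIF2AK3 was at 38.6 to 44.2 CPM in the controls and at 48.4, 47.1, 46.7 and 20.4 CPM in the DDR1 libraries, with library 4 below all others and the remaining 3 above all controls. CREB3L2, an ER-membrane relative of ATF6, was at 75.2 to 173 CPM in the controls and at 92.7 to 159 CPM in the DDR1 libraries. The log2 fold changes of the 3 were 0.06, -0.02 and 0.05.

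ATF4 mRNA was at 228, 222, 261 and 230 CPM in the controls and at 315, 210, 200 and 396 CPM in the DDR1 libraries. As with XBP1, DDR1 libraries 1 and 4 lay above the controls, and here libraries 2 and 3 below them (log2 fold change 0.25, SE 0.231, unadjusted p = 0.298). The ATF4 pseudogenes in the table were each at 0.261 CPM or less.

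The ATF4 targets that regulate stress numbered 8, of which 2 were higher and 6 lower in DDR1 tumours, with none passing the test and a median log2 fold change of -0.07. TRIB3 (ENSG00000101255, chr20:362835-397559, plus strand), a pseudokinase that feeds back on ATF4, was at 30.8, 17.7, 60.02 and 28.6 CPM in the controls and at 40.2, 23.9, 22.3 and 44.6 CPM in the DDR1 libraries. DDIT3 (CHOP, the pro-death factor of prolonged stress) was at 10.3, 7.43, 15.5 and 11.1 CPM in the controls and at 14.7, 8.04, 9.27 and 12.6 CPM in the DDR1 libraries. In both, control library 3 was the highest and DDR1 libraries 1 and 4 the highest of their group, and the groups overlapped, with log2 fold changes of -0.07 (SE 0.375) and 0.01 (SE 0.285). DDIT3 shares 355 exonic bases with MARS on the opposite strand, which was at 88.6 CPM on average and 113 CPM in control library 3. Its part in the DDIT3 counts was not tested.

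DDIT4 (REDD1, an inhibitor of mTORC1 that also responds to hypoxia) varied most of all members. It was at 174, 56.1, 209 and 42.1 CPM in the controls and at 225, 89.3, 78.3 and 76.7 CPM in the DDR1 libraries, a 5.36-fold range, and its SD was at the 96.8 percentile of genes near its level. High and low libraries stood in both groups (log2 fold change -0.04, SE 0.554). A list of 12 hypoxia genes, as a mean log2 deviation from each gene's average, stood at 0.74, -0.52, -0.09 and -0.90 in control libraries 1 to 4 and at 0.37, -0.03, 0.23 and 0.20 in DDR1 libraries 1 to 4. It was high beside DDIT4 in control 1 and DDR1 1 and low beside it in controls 2 and 4, but not high in control 3, and it was above its average in DDR1 3 and 4, where DDIT4 was not high. Its part was not tested.

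CHAC1, which degrades glutathione, had the lowest fold change of all members, from 1.66, 1.17, 3.62 and 3.73 CPM in the controls to 1.47, 1.55, 0.89 and 2.3 CPM in the DDR1 libraries (log2 fold change -0.71, SE 0.450, unadjusted p = 0.147). Its smallest count was 22. Control libraries 3 and 4, the libraries without a lane, were its highest, and without them the log2 fold change was 0.13. CEBPB, a partner of ATF4 and CHOP, was at 25.3, 21, 32.6 and 25.5 CPM in the controls and at 22.8, 23.5, 17.7 and 19.1 CPM in the DDR1 libraries (log2 fold change -0.33, SE 0.185, unadjusted p = 0.108).

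ATF3 and PPP1R15A, a stress-induced repressor and the phosphatase subunit (GADD34) that reverses eIF2α phosphorylation, followed another library. ATF3 was at 19.7, 9.61, 9.17 and 11.4 CPM in the controls and at 10.4, 15.7, 7.61 and 24.6 CPM in the DDR1 libraries. PPP1R15A was at 65.1, 41.8, 52.0 and 57.6 CPM in the controls and at 36.1, 42.2, 44.1 and 83.2 CPM in the DDR1 libraries. DDR1 library 4 was the highest in both. There a list of 13 genes that rise with tissue handling stood at 0.86 above its average on the log2 scale, against -0.29 to 0.08 elsewhere, FOSB was at 125 CPM against 18.2 to 35.6 CPM, and mitochondrial counts made up 3.62% against 1.2 to 2.54%. Their part was not tested. SESN2, a sensor of leucine and redox stress, was at 9.44 to 23.2 CPM in the controls and within 12.7 to 15.5 CPM in the DDR1 libraries.

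The amino acid targets of ATF4 numbered 4, and all 4 had lower values in DDR1 tumours, none past the test, with a median log2 fold change of -0.26. Without the controls that name no lane 3 of the 4 turned (ASNS 0.05, PSAT1 0.23, PHGDH 0.02), as they did with title prefixes summed (ASNS 0.14, PSAT1 0.06, PHGDH 0.06). ASNS (asparagine synthetase) was at 9.64, 7.10, 13.1 and 11.6 CPM in the controls and at 14.2, 9.24, 4.86 and 6.15 CPM in the DDR1 libraries. PHGDH, the first enzyme of serine synthesis, was at 16.9, 13.1, 22.5 and 14.3 CPM in the controls and at 21.4, 12.7, 8.05 and 18.4 CPM in the DDR1 libraries. PSAT1, the next enzyme of that pathway, was at 11.2, 18.7, 36.4 and 16.8 CPM in the controls and at 25.8, 17.2, 11.3 and 15.7 CPM in the DDR1 libraries. In these 3 genes control library 3 was the highest control and DDR1 library 1 the highest of its group, while DDR1 library 3 was the lowest of its group.

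SLC7A11 (xCT, the cystine/glutamate antiporter) ran in another order. It was at 11.4, 15.2, 4.995 and 26.5 CPM in the controls and at 6.61, 14.1, 13.2 and 6.45 CPM in the DDR1 libraries (log2 fold change -0.52, SE 0.478, unadjusted p = 0.303). It was lowest in control library 3, where TRIB3, DDIT3 and PSAT1 were highest, and its ratio to PSAT1 ran from 0.137 in that library to 1.57 in control library 4. SLC7A11 is also a target of NRF2, the factor of the oxidative stress response. The 12 genes of an NRF2 list were highest in control library 4 as well (0.36 on the log2 scale), and 10 of the 12 had lower values in DDR1 tumours, none past the test. That list includes SLC7A11 itself.

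**Figure D2:**
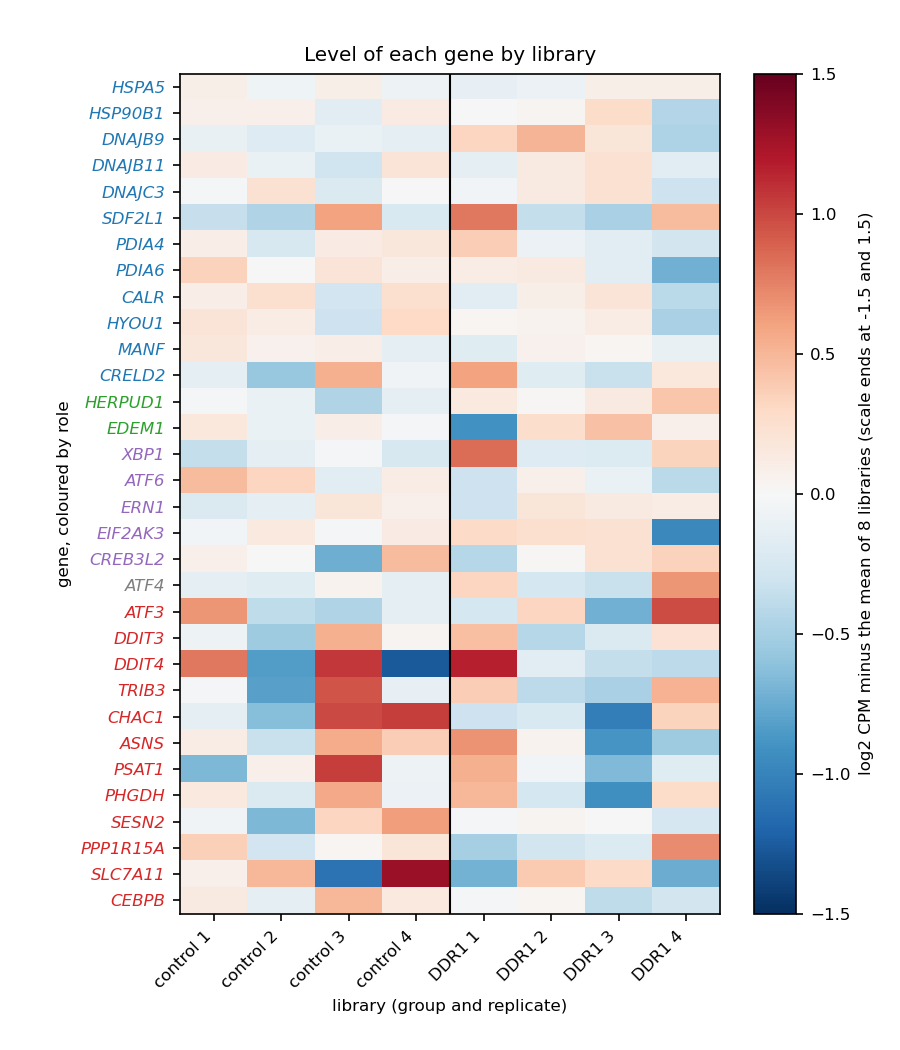
Log2 CPM of each of the 32 genes (rows, names coloured by role) in each library (columns) minus its mean over the 8 libraries, red above and blue below. HSPA5 and MANF are nearly white throughout, control 3 is red for most ATF4 targets but blue for SLC7A11, and DDR1 4 is blue for most chaperones.

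Set side by side, the 12 ER chaperones had a median log2 fold change of -0.03 (5 higher, 7 lower, range -0.29 to 0.32) and the 12 ATF4 targets one of -0.16 (2 higher, 10 lower, range -0.71 to 0.22). In mean log2 level per library, the chaperones minus the targets stood 0.15 higher in DDR1 than in control libraries. The pooled SD of that value between single libraries within groups was 0.293. The gap between the 2 medians was 0.13. The gap turned to -0.03 without control library 3, to -0.02 without DDR1 library 3 and to -0.09 without the controls that name no lane, and it was 0.42 without the lane 7 controls. The median of the ATF4 targets was -0.03 without control library 3, -0.36 without DDR1 library 1 and 0.04 without the controls with no lane, and that of the chaperones was 0.05 without DDR1 library 4. With title prefixes summed the median of the ATF4 targets was 0.03 and the gap -0.05.

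In mean log2 level, DDR1 minus control was -0.02 for the chaperones and -0.16 for the ATF4 targets. The pooled SD within groups was 0.113 and 0.294. Control library 3 was the highest library in 5 of the 12 ATF4 targets and among the 2 highest in 9, and DDR1 library 3 was the lowest in 5. DDR1 library 4 was the lowest library in 7 of the 12 chaperones. As a mean deviation on the log2 scale, the ATF4 targets ran from -0.46 in DDR1 library 3 to 0.41 in control library 3, and the chaperones from -0.22 in DDR1 library 4 to 0.13 in DDR1 library 1. Summed human fibroblast markers were at 10.03 CPM in control library 3, 3.82 CPM in DDR1 library 1 and 12.1 CPM in DDR1 library 4, against 23.4 to 62.8 CPM elsewhere. These are the libraries in which TRIB3, DDIT3, CRELD2 and SDF2L1 were high. Other lists ran otherwise. Endothelial sums were at 8.65, 9.08 and 76.05 CPM in these libraries, in the same order, the last being the highest of all. Leukocyte sums were at 39.5, 30.9 and 49.3 CPM there, against 15.8 to 36.7 CPM elsewhere. The human cells of such a xenograft are T24 cells, so these counts can come from them or from mouse reads matched to human genes. The part of either was not tested, and in bulk tumours fewer cells of a type and less RNA per cell cannot be told apart.

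**Figure D3:**
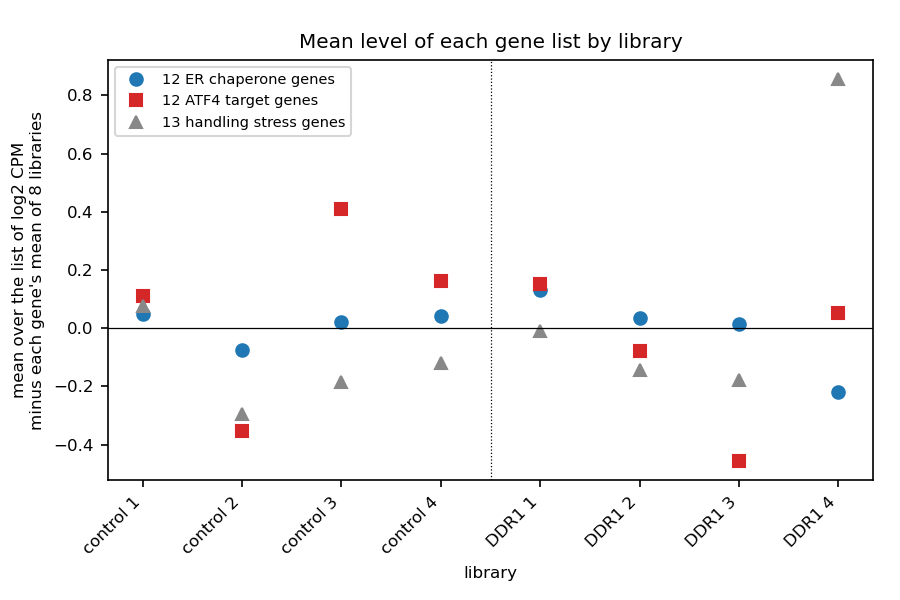
Mean over each list of log2 CPM minus each gene's mean over the 8 libraries (y axis) by library (x axis), for 12 ER chaperones, 12 ATF4 targets and 13 handling stress genes. The ATF4 targets span -0.46 to 0.41 and the chaperones -0.22 to 0.13, and the handling stress genes stand at 0.86 in DDR1 4.

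The lists also differed in how far their genes spread between libraries, which is given as a description. Ranked by the SD of log2 CPM among all genes tested, the median percentile was 18.4 for the chaperones and 71.7 for the ATF4 targets. Because the SD depends on the count and the ATF4 targets had fewer counts, each gene was also ranked among genes within 2-fold of its level, where the medians were 27.1 and 75.2. The highest library was on median 1.6 times the lowest for a chaperone, 3.08 times for an ATF4 target and 2.26 times for all genes tested.

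**Figure D4:**
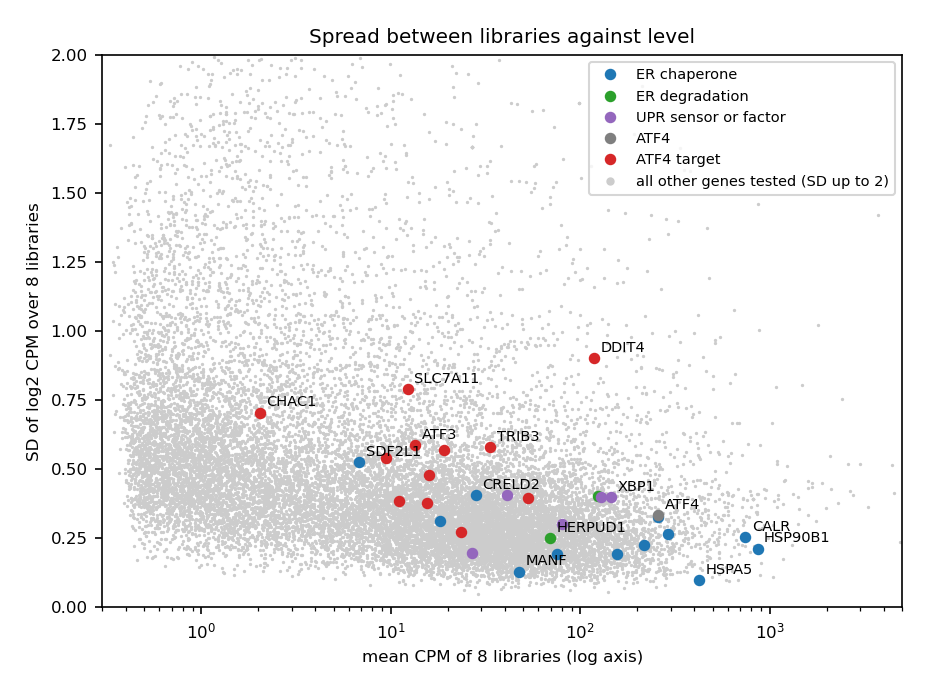
SD of log2 CPM over the 8 libraries (y axis) against mean CPM (x axis, log scale) for the 32 genes, coloured by role, and all other genes tested as grey points, those with an SD over 2 not drawn. HSPA5 and MANF lie at the lower edge of genes of their level and DDIT4 and SLC7A11 near the upper edge.

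Which members varied together was described over the 8 libraries with HSPA5 and TRIB3 as reference genes. Both genes were chosen after their values were seen, so r is given as a description with no test. DDIT3 followed TRIB3 with Pearson's r = 0.941 (Spearman's rho = 0.929, n = 8), and CRELD2 did so with r = 0.912 (rho = 0.905). DNAJC3 ran against it with r = -0.916 (rho = -0.976), and CALR with r = -0.873 (rho = -0.786). Without the 2 libraries farthest from the median of TRIB3 the r of DDIT3, CRELD2, DNAJC3 and CALR were 0.875, 0.819, -0.920 and -0.868, and with group means removed 0.941, 0.923, -0.917 and -0.917. Each lane or title prefix holds too few libraries for a value of its own.

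ATF4 mRNA itself had r = 0.689 with TRIB3 (rho = 0.833). HSPA5 had r = 0.347 with TRIB3 (rho = 0.214), and its r farthest from 0 among 31 members was 0.639, with PPP1R15A (rho = 0.786). By rank its strongest relation was with EIF2AK3 (rho = -0.833, r = -0.544). All these values share the same 8 libraries and the scaling by library size.

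**Figure D5:**
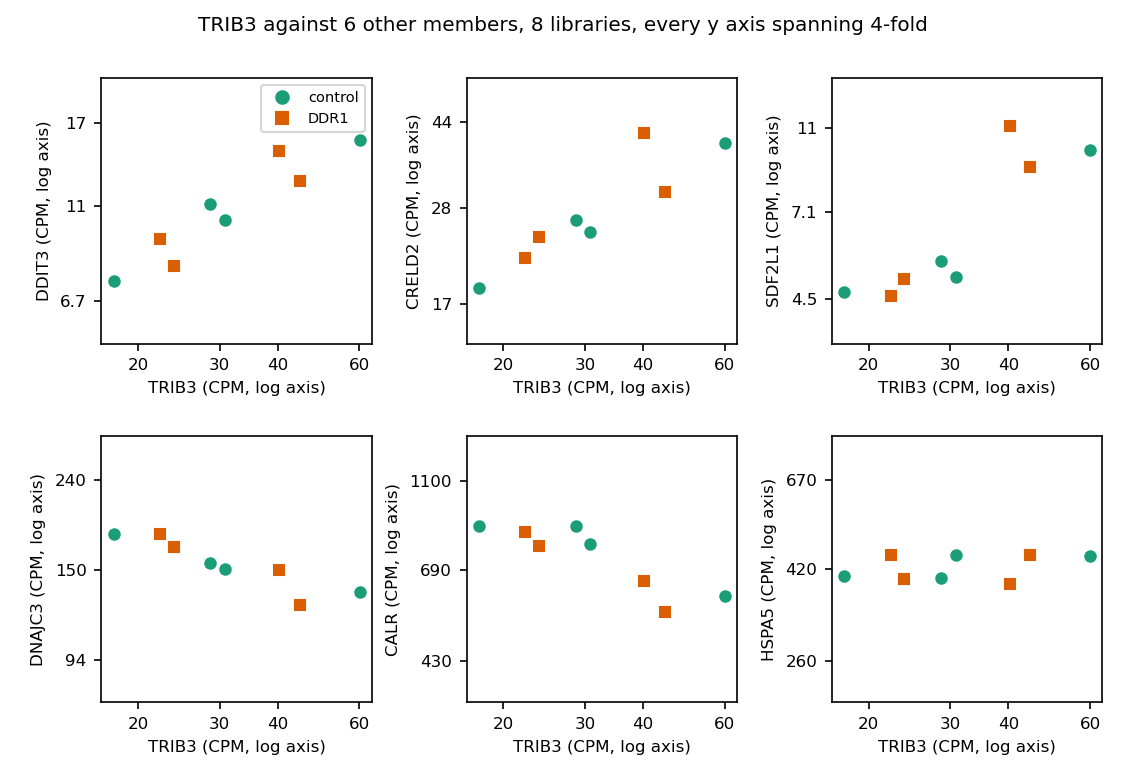
CPM of DDIT3, CRELD2, SDF2L1, DNAJC3, CALR and HSPA5 (y axes, log scale, each spanning 4-fold) against TRIB3 (x axis, log scale), 1 point per library, circles for control and squares for DDR1. DDIT3 and CRELD2 climb with TRIB3 (r = 0.941 and 0.912), DNAJC3 descends (r = -0.916), HSPA5 is level, and both groups lie along the same course.

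The chaperones did not all run in 1 order. The median r over the 66 pairs of chaperones was 0.146, over the 66 pairs of ATF4 targets 0.413, over the 144 pairs across the lists -0.06, and over all pairs of genes tested -0.00075; pairs share libraries and genes, so no test was made. Of pairs named after their values were seen, CALR with HYOU1 (r = 0.911) and HSP90B1 with HYOU1 (r = 0.897) ran together, as did SDF2L1 with CRELD2 (r = 0.941), while SDF2L1 ran against CALR (r = -0.882). CRELD2, counted as a chaperone, had its highest r with DDIT3 (0.948), an ATF4 target. CALR, HYOU1, HSP90B1, SDF2L1 and CRELD2 all hold an ERSE or ERSE-II motif in the promoter windows, as the nearly even HSPA5 does. The part of these letters was not tested. The ratio of CRELD2 to HSPA5 ran from 0.0455 in control library 2 to 0.106 in DDR1 library 1.

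The wider pathway, given by lists chosen with earlier results of these data known, had no gene past the test. Of 23 other ER folding genes 13 were higher and 10 lower (median log2 fold change 0.04), with PDIA5, KDELR3 and SDF2 having the smallest p-values, at 0.176, 0.198 and 0.108 unadjusted by edgeR. Of 21 genes of ER degradation and translocation 10 were higher and 11 lower (median -0.01). SEL1L, the partner of the HRD1 ubiquitin ligase that acts with HERPUD1, was at 104, 97.8, 75.2 and 97.4 CPM in the controls and at 141, 132, 121 and 139 CPM in the DDR1 libraries. As with HERPUD1, every DDR1 library was above every control (log2 fold change 0.51, SE 0.149, unadjusted p = 0.0068, adjusted p = 1, edgeR). It was the 1 gene of the 21 without overlap, beside 2.4% of all genes tested. Of 9 other regulators of the unfolded protein response that were tested, 7 were lower (median -0.25), with WFS1, TRAF2 and CREB3 having the smallest p-values.

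Of 11 kinases and regulators of the integrated stress response 8 were higher and 3 lower (median 0.06). At an unadjusted p under 0.05 stood 2 of the 11, beside 4.17% of all genes tested, and these 2 are named for their small p-values. EIF2S1, the eIF2α subunit that the stress kinases phosphorylate, was at 113, 124, 78.8 and 94.3 CPM in the controls and at 189, 128, 108 and 169 CPM in the DDR1 libraries (log2 fold change 0.53, SE 0.219, unadjusted p = 0.0366, edgeR). NUPR1, a stress-induced nuclear protein, was at 7.48, 12.4, 6.98 and 11.7 CPM in the controls and at 17.0, 17.3, 26.7 and 9.50 CPM in the DDR1 libraries (log2 fold change 0.87, SE 0.330, unadjusted p = 0.0254, edgeR). In both genes the groups overlapped.

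Of 16 other amino acid genes of the ATF4 programme 6 were higher and 10 lower (median -0.16), and their mean level was highest in control library 3 (0.51) and lowest in DDR1 library 3 (-0.30), the same 2 libraries as for the 12 targets. Of 12 tRNA synthetases 7 were higher and 5 lower (median 0.02), and of 14 cytosolic heat shock genes 7 were higher and 7 lower (median 0.004). CBS, an enzyme of transsulfuration, had the widest fold change of these, from 2.74 to 8.74 CPM in the controls to 3.48 to 19.0 CPM in the DDR1 libraries (log2 fold change 1.04, SE 0.547, unadjusted p = 0.0892, edgeR). Handling stress genes were higher in 9 of 13 (median 0.33, FOS 0.95 with unadjusted p = 0.0246, edgeR), and hypoxia genes in 9 of 12 (median 0.20, BNIP3L 0.43 with unadjusted p = 0.0434, edgeR). A last list, of 7 tested secreted and stress genes of the programme such as GDF15, was lower in 5 (median -0.26). SEL1L, EIF2S1 and FOS, named from their lists for small p-values, all lie on chromosome 14 (starts at 81471549, 67359997 and 75278774). NUPR1 and BNIP3L, also at an unadjusted p under 0.05 (edgeR), lie on chromosomes 16 and 8. The location was looked at after the genes were named, and the share of chromosome 14 among all genes tested is not given here. The part of this shared location was not tested.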

How the data were processed

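Tumour RNA was homogenised, poly-T selected and sequenced as 150 bp read pairs, per the labels' protocols. The submitters' processing notes list FastQC 0.11.9, Trim Galore 0.6.4, STAR 2.7.5, RSEM 1.3.1 and build GRCh38; the annotation release, the strand setting and any removal of mouse reads were not given in the sources used here. The authors deposited 2 tables: expected counts per Ensembl gene, not normalized, of which 26.5% of nonzero values are not whole, and TMM-normalized log2 values, which served as 1 alternative. The 8 single-library files repeat columns of the log2 table and were left aside.

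Of 58302 identifiers, 58039 matched GENCODE release 29, which gave symbols, coordinates and exon lengths. Expected counts were rounded, filtered with filterByExpr (minimum count 10) and scaled by TMM; CPM are counts scaled to the effective library size, with a prior count of 2 before log2 was taken. Groups followed the condition label. The test was edgeR 4.0.16 quasi-likelihood (R 4.3.3) on all 8 libraries without covariates, with Benjamini-Hochberg adjustment over all genes tested and a threshold of 0.05. SE is the fold change over the square root of F, and intervals are 95%. The script was tested on simulated counts. No pair of libraries agreed within sampling noise (chi-square per degree of freedom at least 31). Depth did not differ between groups past the threshold (exact two-sided permutation p = 0.0857), and the 4 against 4 design has 70 orderings.

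The members and lists were chosen with earlier results of these data known. The text names all members, DDR1, up to 3 genes of smallest p per other pathway list, and the most abundant gene per cell type list; other names and the reference genes of the correlations were chosen after values were seen. Alternatives were RLE and upper-quartile scaling, DESeq2 1.42.0, limma 3.58.1 (voom, trend), other filters, libraries left out, summed title prefixes and, chosen after seeing the data, voom with library quality weights. Without strand marking, counts of the 10 members that share exonic bases with a tested gene on the opposite strand can include its reads, and ASNS and DNAJB11 share exonic bases with a gene on the same strand.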

Additional observations from a re-analysis of the deposited data

Results flagged for a closer look

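Gaps between libraries were judged on the log2 scale, while levels are given below in CPM, whose shares differ. In 66 groups of 4 libraries (32 members and DDR1, each group apart), 4 held a library flagged by its gap. On the log2 scale its gap to the nearest other was a larger share of the range than Dixon's 95% critical value allows. Chance alone gives about 1 in 20. The 4 flags of 66 were near that share. All lay in DDR1 library 1 or DDR1 library 4, and groups that share libraries are not independent. HYOU1 was at 205 CPM in DDR1 library 4, against 294 to 310 CPM in the other DDR1 libraries. EIF2AK3 was at 20.4 CPM in the same library, against 46.7 to 48.4 CPM. ERN1 was at 21.5 CPM in DDR1 library 1, against 29 to 30.2 CPM, which lies near the lowest control (22.9 CPM). DDIT4 was at 225 CPM in DDR1 library 1, against 76.7 to 89.3 CPM, close to control library 3 (209 CPM). DDR1 library 1 is the one whose DDR1 level lay in the control range, and DDR1 library 4 the one with the highest handling stress genes and mitochondrial share; the part of either was not tested.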

How the results depend on the processing

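No member was called under any of the 20 alternatives. DESeq2 called 16 genes and the other 19 called 0. The count of members at an unadjusted p under 0.05, 1 as reported, was 0 with RLE scaling, upper-quartile scaling, polymerase III, mitochondrial genes and DDR1 left out, DESeq2, limma-voom, no filter, a 5 CPM filter or summed prefixes, 2 without the lane 7 controls, and 0 to 3 with 1 library left out. Where the count was 1, the member was not always HERPUD1. It was ATF6 without control library 3 or without the controls that name no lane, and XBP1 without DDR1 library 3. It was DNAJB9 without DDR1 library 4 or with library quality weights. DDR1 was at 1.31 without the lane 7 controls (unadjusted p = 0.0653, edgeR), and at 1.05 to 1.79 with 1 library left out. Fold changes that turned sign are given on the log2 scale, and the cause was not tested. Without the lane 7 controls they were HSPA5 0.0225, HSP90B1 0.0294, SDF2L1 -0.0116, MANF 0.00683, CRELD2 -0.128, ERN1 -0.0556, EIF2AK3 0.00795 and DDIT3 -0.229. Without the controls that name no lane they were DNAJC3 -0.0857, PDIA4 0.043, ATF3 -0.0101, DDIT4 0.0325, TRIB3 0.436, CHAC1 0.134, ASNS 0.0473, PSAT1 0.23, PHGDH 0.0194 and SESN2 0.276. With title prefixes summed (3 control, 2 DDR1) they were DNAJC3 -0.0119, PDIA4 0.132, EDEM1 -0.232, EIF2AK3 0.112, CREB3L2 -0.0612, ATF3 -0.0163, DDIT4 0.305, TRIB3 0.11, ASNS 0.135, PSAT1 0.0573, PHGDH 0.0611 and SESN2 0.00327. With library quality weights they were SDF2L1 -0.00164, EIF2AK3 0.106, CREB3L2 -0.0696, ATF4 -0.0229, DDIT3 -0.218, DDIT4 0.0133 and PSAT1 0.0643. With limma-voom they were EDEM1 -0.0628 and DDIT4 0.114, with limma-trend on the deposited log2 values EDEM1 -0.0517, DDIT4 0.135 and TRIB3 0.018, without a filter HSPA5 0.00946 and EIF2AK3 0.00459, and with the 5 CPM filter DDIT3 -0.00435.

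With 1 library left out, the ranges that crossed 0 were HSPA5 -0.0438 to 0.0265, HSP90B1 -0.149 to 0.084, DNAJB11 -0.049 to 0.112, DNAJC3 -0.0666 to 0.111, SDF2L1 -0.0201 to 0.552, PDIA4 -0.223 to 0.0219, CRELD2 -0.1 to 0.349, EDEM1 -0.134 to 0.234, EIF2AK3 -0.118 to 0.206, CREB3L2 -0.127 to 0.245, ATF3 -0.145 to 0.544, DDIT3 -0.157 to 0.217, DDIT4 -0.566 to 0.374, TRIB3 -0.282 to 0.352, PSAT1 -0.499 to 0.17, PHGDH -0.357 to 0.0746, SESN2 -0.376 to 0.0394 and PPP1R15A -0.395 to 0.0628. The other members, among them HERPUD1, XBP1, ATF6, SLC7A11 and CEBPB, kept their sign there. CHAC1 was not tested under the 5 CPM filter. No paired analysis was possible because replicate numbers follow accession order and pair nothing. The biological coefficient of variation was 0.386, and the 95% intervals of 7 members, SDF2L1 and 6 ATF4 targets, reached beyond 2-fold.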
